A study of Rattus norvegicus with 24 samples.

Results

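ENSRNOT00000010238 is one of 22938 rat transcripts counted in every library of a study of ageing in brain and liver. It was chosen from its measured values, as the row with this identifier in all 24 count tables, because it was nearly absent in young liver, rose in old liver in both assays and differed between the organs in level and in its ratio of footprints to RNA. Those levels and differences are therefore given as descriptions, without a test, and only the effect of age within brain, which played no part in the choice, was tested.

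The rats were young (6 months) or old (24 months), with 3 animals at each age, and each animal gave 4 libraries: RNA-seq of total RNA with a stranded kit and ribosome profiling, both from brain and from liver. This makes 8 groups of 3 libraries: young brain, old brain, young liver and old liver in each assay. The labels name no treatment, and they state no strain, sex or genotype. Animals are numbered 1 to 3 within each age, so that young animal 1 and old animal 1 are different rats.

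Ribosome profiling digests RNA that is not shielded by ribosomes and sequences the protected pieces, called footprints, so a transcript's footprint count reflects how many ribosomes sat on it. Dividing footprints by RNA-seq reads gives its footprint to RNA ratio, a measure of how densely the RNA is occupied by ribosomes and usually read as translational efficiency. Brain and liver use largely different sets of genes: neurons and glia carry many transcripts that hepatocytes, the main cell type of liver, hold at trace levels. In a whole organ, a transcript's level depends both on the RNA per cell and on how many cells of the type that holds it are present, and bulk libraries cannot tell these apart. The count tables give identifiers without gene names, and 0 of the 22938 identifiers matched the reference table of rat genes, so what the product of ENSRNOT00000010238 does is not stated and no sequence is shown. No other transcript had the same counts in every library (0 others).

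Libraries held 14281043 to 28664906 counts in RNA-seq and 5259326 to 17584871 in ribosome profiling. Levels are counts per 1000000 counts of the library (CPM). Organ identity was read from the 50 most abundant transcripts at least 30-fold higher in young brain than in young liver, with ENSRNOT00000010238 left out, and from the 50 chosen the same way for liver. The sum of the liver list in the brain of old animal 2 was 4.93% of its young liver level in RNA-seq and 6.05% in ribosome profiling. The other brain libraries lay between 0.0931% and 0.410%. The sum of the brain list in liver libraries lay between 0.483% and 0.887% of its young brain level, highest in old animal 3 in both assays.

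In young liver, RNA of ENSRNOT00000010238 was barely detected. RNA-seq of young liver gave 12, 6 and 3 counts in animals 1, 2 and 3, which is 0.568, 0.326 and 0.167 CPM. Over the group these were 21 counts among 57466825, or 0.365 CPM with an exact Poisson 95% interval of 0.226 to 0.559. Such intervals cover counting error only and leave out the spread between animals. PCR reads without molecular identifiers are not independent molecules, so the intervals may be too narrow even for counting error. Footprints were as scarce, with 6, 0 and 2 counts in the same animals. The library of young animal 2 held 0 footprint counts of 15175880. A floor of 3 counts there is 0.198 CPM, and the upper end of the exact Poisson 95% interval is 0.243 CPM. The group as a whole gave 8 counts among 44600638, or 0.179 CPM (95% interval 0.0774 to 0.353). Young animal 1 had the highest level of the 3 in both assays.

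In old liver the transcript was well above this trace in all 3 animals. RNA-seq gave 609, 308 and 499 counts in old animals 1, 2 and 3, or 21.2, 12.1 and 19.3 CPM. The group mean was 17.6 ± 4.82 CPM, against 0.354 ± 0.202 CPM in young liver (SD, n = 3). Every old library was above every young one, and the lowest of the old, from animal 2, still held 308 counts where the highest of the young held 12. Of the 12198 transcripts tested between the ages in liver RNA-seq, 7.51% were likewise higher in each old than in each young library. ENSRNOT00000010238 passed the filter on low counts through its old libraries alone.

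Footprints in old liver numbered 247, 121 and 324 in animals 1, 2 and 3, or 23.1, 9.57 and 21.1 CPM. The group mean was 17.9 ± 7.29 CPM, against 0.207 ± 0.266 CPM in young liver (SD, n = 3). Again the ages did not overlap, as for 13.5% of the 11396 transcripts tested in liver ribosome profiling that were higher in each old library. Old animal 2 was the lowest of the 3 old livers in RNA and in footprints.

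From the summed counts of each group, old liver held 48.5 times the young level in RNA-seq (95% counting interval 31.6 to 78.6) and 99.7 times in ribosome profiling (50.3 to 232). Fitted across all transcripts with edgeR, the log2 fold changes were 5.66 (SE 0.386) and 6.44 (SE 0.660). Young animal 1 carried 12 of the 21 young RNA-seq counts and 6 of the 8 young footprint counts. Without its libraries the log2 fold changes were 6.28 and 7.90, so the size of the rise rests on a few young counts.

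**Figure D1:**
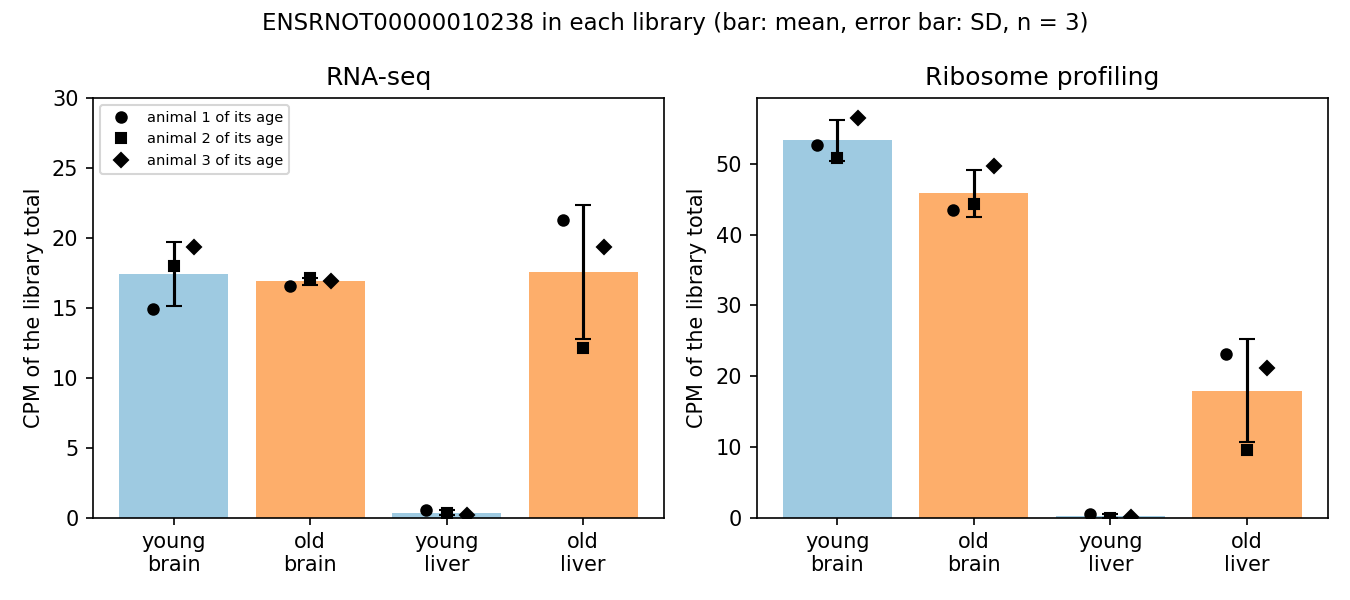
Level of ENSRNOT00000010238 in each library, as CPM of the library total, for RNA-seq (left) and ribosome profiling (right); bars are group means, error bars the SD (n = 3) and symbols the animals. Young liver lies near 0 in both panels, old liver RNA stands at 17.6 CPM beside 16.9 to 17.4 CPM in brain (above brain when libraries are scaled by TMM), and old liver footprints stand at 17.9 CPM below brain (close to brain under TMM).

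The old livers differed from one another in level. Their coefficient of variation was 27.4% in RNA-seq, against a median of 15.5% among 4073 transcripts with a mean CPM between 0.5 and 2 times that of ENSRNOT00000010238 in old liver. In ribosome profiling it was 40.7% against a median of 16.3% among 3851 such transcripts. In brain RNA-seq it was 13.1% in young animals, against a median of 7.14% among transcripts chosen the same way. In old brain RNA-seq it was 1.65%, where the SD of 0.278 CPM was below the counting SD of a single library (0.972 to 1.09 CPM).

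In brain, RNA-seq levels of the 2 ages overlapped. They were 14.9, 18.0 and 19.4 CPM in young brain (228, 278 and 291 counts in animals 1, 2 and 3) and 16.6, 17.1 and 16.9 CPM in old brain (291, 277 and 242 counts). The means were 17.4 ± 2.29 and 16.9 ± 0.278 CPM (SD, n = 3), and the old values lay inside the range of the young ones. The fitted log2 fold change of old against young was -0.06 (SE 0.103, 95% interval -0.28 to 0.17), which did not pass the test (edgeR quasi-likelihood F test, Benjamini-Hochberg adjusted p = 0.853). In that comparison 0.472% of 13986 transcripts passed at an adjusted p under 0.05. The interval leaves room for a change of either sign, and without young animal 3 the sign of the estimate turned, at 0.028.

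Brain footprints were slightly lower in old animals, though not beyond what the test could separate from the spread. Young brain gave 52.7, 50.8 and 56.5 CPM (681, 287 and 542 counts) and old brain 43.5, 44.4 and 49.7 CPM (229, 693 and 445 counts). The means were 53.3 ± 2.91 and 45.9 ± 3.34 CPM (SD, n = 3). On library totals each old library was below each young one, as for 10.5% of 13570 transcripts tested. With TMM scaling (trimmed mean of M values) over the 12 libraries of the assay, the ages overlapped. Old animal 3 stood at 31.0 and young animal 2 at 30.8. The fit below took its TMM factors from the brain libraries alone, so these values are not on its scale. The fitted log2 fold change was -0.21 (SE 0.127, 95% interval -0.47 to 0.05), with an adjusted p of 0.482 by edgeR's quasi-likelihood test, where 1.71% of transcripts passed. Without old animal 2, whose brain libraries held the high sum of liver transcripts, it was -0.21 (adjusted p = 0.611 by edgeR).

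The footprint to RNA ratio in brain was 3.53, 2.82 and 2.92 in young animals 1, 2 and 3, and 2.63, 2.59 and 2.93 in old animals 1, 2 and 3. The means were 3.09 ± 0.386 and 2.72 ± 0.188 (SD, n = 3), and the ages overlapped. In a test of whether age acts differently on the 2 assays, fitted to the 12 brain libraries, the ratio changed by -0.13 on the log2 scale (SE 0.157, 95% interval -0.46 to 0.20; edgeR adjusted p = 0.944). The share of the 14664 transcripts that passed this test was 0.0818%. On simulated data with 14704 transcripts tested, this interaction test recovered 58% of the 2-fold and 98% of the 4-fold changes put in. The changes were put into a sample of transcripts above a limit on mean count. The simulation used a fixed spread and no effect shared by an animal's libraries, so these shares need not hold for ENSRNOT00000010238.

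Ratios are relative to the library totals of the 2 assays, so a value of 1 means an equal share of counts and not an equal number of molecules. Percentiles here use the ratio of group mean CPMs, among transcripts with a mean of at least 1 CPM in RNA-seq. In young brain this ratio of ENSRNOT00000010238 lay above those of 96.6% of 13438 transcripts, whose median was 0.91. In old brain it lay above 95.5% of 13750, with a median of 0.903. Its brain RNA was thus among the more densely occupied in each age, as a description of the values that chose it.

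In old liver the ratio was 1.09, 0.791 and 1.09 in animals 1, 2 and 3, with a mean of 0.989 ± 0.172 (SD, n = 3), so all 3 old livers lay below all 6 brains. By the ratio of group mean CPMs, 1.02 in old liver, the transcript lay above 61.7% of 11292 transcripts. Their median ratio was 0.86. Within each old animal the brain ratio was 2.42, 3.28 and 2.69 times the liver ratio in animals 1, 2 and 3. The mean difference was 1.47 ± 0.223 on the log2 scale (SD, n = 3). It was 1.49 with TMM-scaled values and 1.45 with median-ratio scaling, because the organ scaling nearly cancels between assays.

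Young liver held too few reads for a ratio per animal. Its summed counts gave 0.491, with a 95% counting interval of 0.188 to 1.15 that includes the old liver ratio of 1.01 computed the same way. A difference between young and old liver in this ratio was therefore not detectable at this depth.

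**Figure D2:**
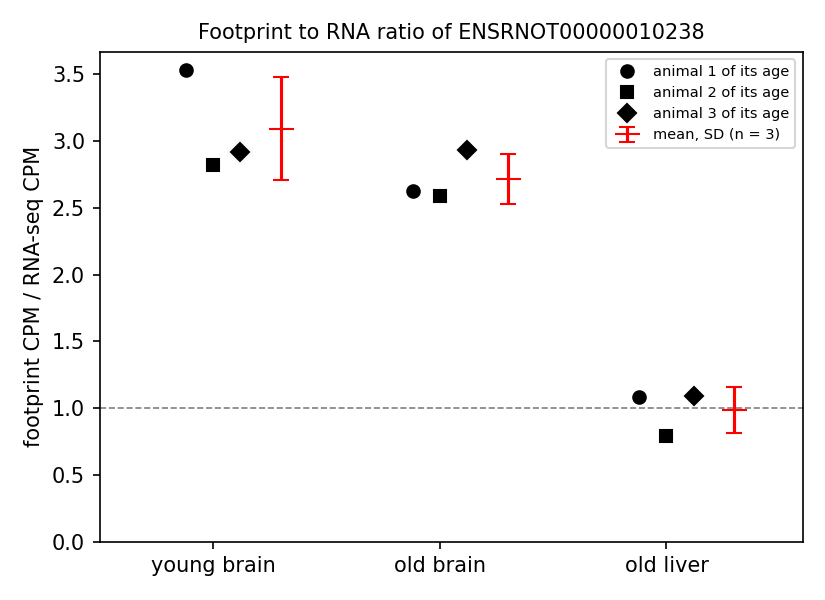
Footprint CPM divided by RNA-seq CPM of ENSRNOT00000010238 in each animal for young brain, old brain and old liver; black symbols are animals, red marks the mean and SD (n = 3), and the dashed line is a ratio of 1. The 6 brain values lie between 2.59 and 3.53 and the 3 old liver values between 0.791 and 1.09; young liver is not drawn because it held 8 footprint counts in all.

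Set in order by RNA-seq level, young liver was lowest (0.354 CPM), followed by old brain (16.9 CPM), young brain (17.4 CPM) and old liver (17.6 CPM). The upper 3 groups overlapped with their neighbours, and young liver overlapped with none. By footprint level the order was young liver (0.207 CPM), old liver (17.9 CPM), old brain (45.9 CPM) and young brain (53.3 CPM), with no overlap between neighbours on library totals. With TMM scaling the footprints of old liver (15.4 to 36.2), old brain (26.4 to 31.0) and young brain (30.8 to 35.6) all overlapped.

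The place of old liver against brain depended on the scaling. Normalization by TMM, fitted over the 12 libraries of an assay, lowered all brain values against liver by 1.16 to 1.40 on the log2 scale. With TMM-scaled CPM, old liver RNA stood at 27.7 ± 7.51 and old brain RNA at 11.1 ± 0.406 (SD, n = 3), with each old liver library above each brain library. Footprints then stood at 26.9 ± 10.6 in old liver and 29.2 ± 2.52 in old brain. Equal RNA levels in old liver and brain therefore hold for shares of the library total only. Young liver remained far below on this scale too, at 0.532 ± 0.339 in RNA-seq and 0.342 ± 0.443 in footprints.

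Within the old animals, liver RNA was 128% of brain RNA in animal 1, 70.7% in animal 2 and 114% in animal 3, as CPM of the library total. Liver footprints were 53.0%, 21.6% and 42.4% of brain footprints in the same animals. In young animals, liver RNA was 3.81%, 1.81% and 0.863% of brain RNA in animals 1, 2 and 3. Their liver footprints were 0.962%, 0% and 0.201% of brain footprints.

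The sum of the 50 transcripts in the brain list was at a trace level in old liver. They were chosen as low in young liver RNA-seq, so their low level there follows from the choice. The brain list summed to 0.634%, 0.616% and 0.887% of its young brain level in the RNA-seq libraries of old livers 1, 2 and 3, and to 0.620% to 0.648% in young livers. ENSRNOT00000010238 reached 69.5% to 122% of its own young brain level in the same old livers. The median transcript of the list was at 0.154% to 0.204% in old liver RNA-seq, and 3 to 7 of the 50 were at 0 counts. In old liver footprints the list summed to 0.590% to 0.781%, with 6 to 13 of 50 at 0, and ENSRNOT00000010238 was at 18.0% to 43.3%. The library with the highest sum of the list was that of old animal 3, while the highest level of ENSRNOT00000010238 was in old animal 1.

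Transcripts with a like starting point were then compared. Besides ENSRNOT00000010238, 1549 transcripts had at least 5 CPM in each brain RNA-seq library and under 1 CPM in each young liver RNA-seq library. Levels here are in CPM without correction for length, so each is set against the same transcript's brain level. In old liver RNA-seq the median of these transcripts was 0.137% of their mean brain level, and ENSRNOT00000010238 was at 102%. Of the 1549, 6 exceeded 20%, and the highest, ENSRNOT00000034565, reached 41.1%. That transcript went from 0.408 ± 0.179 CPM in young to 2.57 ± 2.18 CPM in old liver RNA-seq (SD, n = 3) and stood at 5.07 to 7.38 CPM in brain. Every old liver library was above every young one for 105 of the 1549 (6.78%), a share near the 7.51% of all tested transcripts. The limits of this comparison were set with the values of ENSRNOT00000010238 known.

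**Figure D3:**
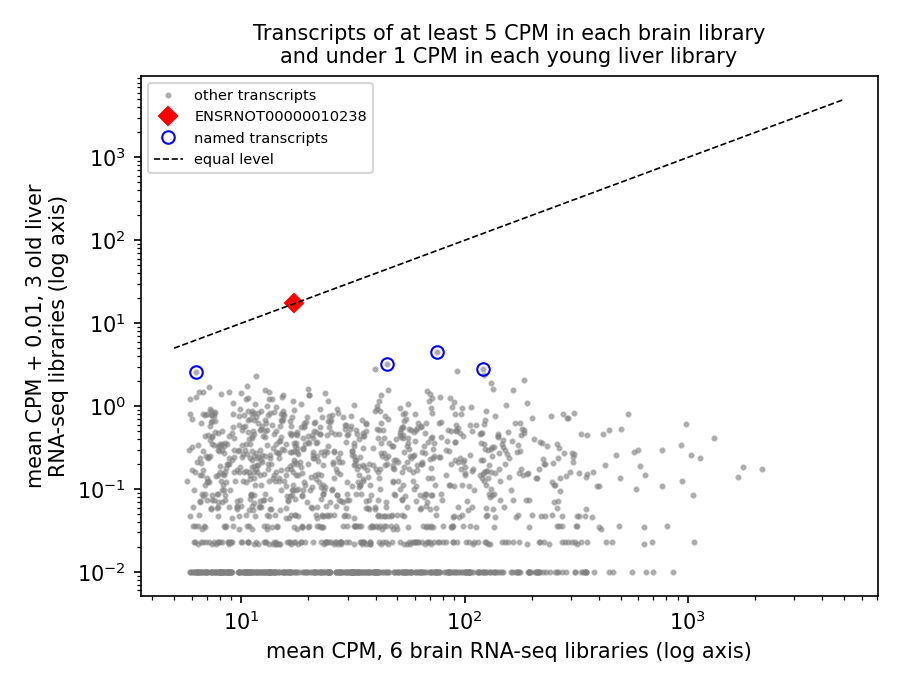
Mean CPM in the 3 old liver RNA-seq libraries (with 0.01 added for drawing) against mean CPM in the 6 brain RNA-seq libraries, on log axes, for transcripts of at least 5 CPM in each brain and under 1 CPM in each young liver RNA-seq library. ENSRNOT00000010238 (red) lies near the dashed line of equal level, which rests on library totals (with TMM scaling it lies above brain), and the 1549 others (grey, named ones circled in blue) lie below it.

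Of the 1549 others, the 3 with the highest mean CPM in old liver RNA-seq varied far more between animals. ENSRNOT00000012683 gave 3.56, 9.83 and 0.0774 CPM in old livers 1, 2 and 3. ENSRNOT00000018630 gave 0.523, 1.26 and 7.74 CPM. ENSRNOT00000020921 gave 0.977, 1.02 and 6.39 CPM. In each of them 1 animal held most of the old liver signal, and the animal was not always the same, whereas the 3 old livers of ENSRNOT00000010238 lay within 12.1 to 21.2 CPM. Their brain means were 75.1, 44.8 and 121 CPM, so their old liver levels were 5.97%, 7.09% and 2.31% of brain.

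Footprints of the same transcripts set it less apart. Among the 1549, the highest mean in old liver footprints was 24.2 CPM, above the 17.9 CPM of ENSRNOT00000010238. A step added after the data were seen applied the limit of 1 CPM to the young liver footprint libraries too. It removed the transcript at 24.2 CPM, and 1495 of the 1549 remained. In old liver footprints their median was 0.0354% of the brain level, and ENSRNOT00000010238 was at 36.1%. Of the 1495, 8 exceeded 20% and the highest was at 51.5%, above ENSRNOT00000010238. In level, the highest mean of the 1495 in old liver footprints was 2.23 CPM, against 17.9 CPM for ENSRNOT00000010238.

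The transcripts whose levels ran most like those of ENSRNOT00000010238 were found by Pearson's r of log2(CPM + 0.5) over the 24 libraries, among 15641 others with at least 50 counts in all. The libraries share animals, organs and depths, so r is a description. The closest was ENSRNOT00000026303 (r = 0.894), followed by ENSRNOT00000007219 (0.887), ENSRNOT00000026871 (0.885), ENSRNOT00000045122 (0.880) and ENSRNOT00000029266 (0.879). By this measure 0 of the 15641 exceeded 0.9 and 80 exceeded 0.8, while over the 8 group means 35 exceeded 0.9 and 265 exceeded 0.8.

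ENSRNOT00000026303 went from 3.63 ± 1.98 to 18.3 ± 1.70 CPM in liver RNA-seq and from 2.03 ± 0.790 to 25.1 ± 6.51 CPM in liver footprints (SD, n = 3). In brain it had 15.4 ± 7.95 and 20.9 ± 2.95 CPM in RNA-seq in young and old animals, and 117 ± 60.2 and 182 ± 14.4 CPM in footprints. It thus had a low young liver, a higher old liver and more footprints than RNA in brain, and its young liver was far from the near absence seen for ENSRNOT00000010238.

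The other 4 were scarcer by count. ENSRNOT00000007219 went from 0.622 ± 0.655 to 2.86 ± 1.43 CPM in liver RNA-seq and had brain levels of 9.87 CPM (young) and 9.75 CPM (old). ENSRNOT00000026871 went from 0.847 ± 0.112 to 4.30 ± 1.66 CPM in liver and stood at 5.12 and 8.20 CPM in brain. ENSRNOT00000045122 went from 0.0915 ± 0.0833 to 1.36 ± 0.600 CPM in liver and stood at 2.88 and 2.83 CPM in brain.

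ENSRNOT00000029266 went from 0.105 ± 0.0572 to 1.61 ± 0.764 CPM in liver RNA-seq and had 1.16 CPM in young brain and 1.15 CPM in old brain (SD, n = 3). Like ENSRNOT00000010238 it had an old liver mean at or above its brain mean on library totals. Its footprints in brain, 1.51 and 1.40 CPM, were close to its RNA level and not a multiple of it. The names in this group depended on the measure of likeness. With Spearman's rho, or with Pearson's r over the 8 group means, 1 of these 5 was still among the 5 closest, with a pseudocount of 0.1 CPM 3 were, and with 2 CPM 2 were.

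**Figure D4:**
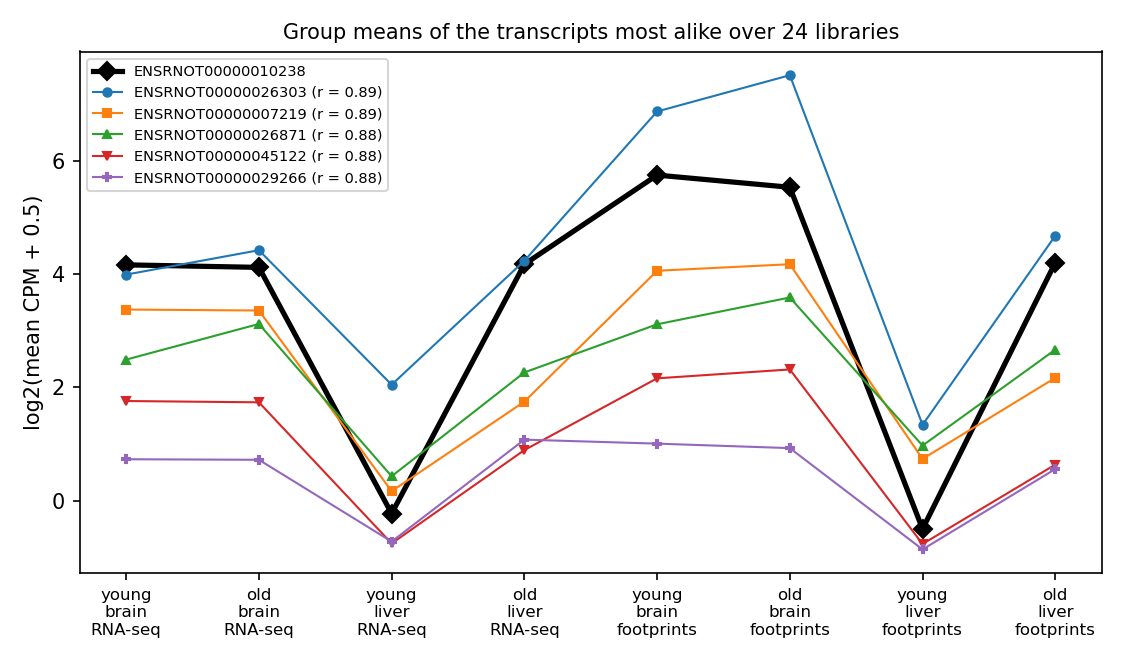
Group means as log2(mean CPM + 0.5) in the 8 groups for ENSRNOT00000010238 (thick black line) and the 5 transcripts with the highest Pearson's r to it over 24 libraries. All 6 lines dip in young liver in both assays, and ENSRNOT00000010238 has the largest step from young to old liver among the 6.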

How the data were processed

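The authors deposited one table per library with whole-number counts per transcript, not normalized, and a second column of undefined meaning that was not used. Per the submitters' processing notes the build was rn4, and TopHat2 2.0.10, Bowtie 1.0.0.0 and DESeq are listed without roles. No source used here gives the annotation, the counting rule or the handling of reads with several matches, so a near-identical copy could share reads with the transcript. Groups come from the sample descriptions and animals from the codes in the titles. CPM is the count per 1000000 counts of the library.

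Ages in brain were tested on the whole table with edgeR's quasi-likelihood F test (version 4.0.16, R 4.3.3; robust, two-sided, TMM factors, expression filter with minimum count 10 and minimum total 15, Benjamini-Hochberg adjustment, threshold 0.05), and the ratio through an age-by-assay term. Standard errors were derived from the F statistic. The labels do not say more on how animals were kept, so p-values measure the spread between these 3 animals a group. Group ratios used exact conditional binomial 95% intervals, and a count of 0 a floor of 3 counts. Fits were tested on simulated data. DESeq2 1.42.0, limma-voom (limma 3.58.1), other scalings and filters, a replicate block and leaving out libraries were the alternatives.

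The pairing of assays comes from the animal codes in the titles and from the series design, which speaks of matched tissues. RNA-seq and ribosome profiling of one animal deviated together from their group means (r from 0.188 to 0.830 in brain and from 0.411 to 0.755 in liver), although the RNA-seq library of old brain 1 correlated slightly better with the footprints of another animal (0.476) than with its own (0.458). The transcript named first, the lists and the limits were chosen with earlier results of these data known. Other transcripts were named by rule: the 5 with the highest r, 3 of those low in young liver, and any with identical counts. Those 3 had the highest mean CPM in old liver among transcripts low in young liver and of at least 5 CPM in each brain. ENSRNOT00000034565 was named after its values were seen. Marker lists by gene symbol were not run, since identifiers had no symbols. For young liver, where a library held 0 footprint counts, ratios of summed counts replaced the planned ratios per animal.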

Additional observations from a re-analysis of the deposited data

Results flagged for a closer look

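In ribosome profiling, on library totals, the ages differed in opposite directions in the organs: each old liver library was above each young one, and each old brain library was below each young one. With TMM factors over the 12 libraries of the assay, the brain libraries of the 2 ages overlapped. Old animal 3 stood at 31.0 and young animal 2 at 30.8. The difference between the fitted log2 fold changes, liver minus brain, was 6.65. It was not tested, because the liver contrast served to choose the transcript, and the brain change alone did not pass its test. Groups of 3 are too small for a check of single outlying libraries.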

How the results depend on the processing

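The effect of age in brain did not pass the test in any of the alternatives, 15 for RNA-seq, 15 for footprints and 20 for the ratio. With one library left out, the edgeR log2 values ran from -0.15 to 0.028 in RNA-seq (0.028 without young animal 3, the only change of sign). In footprints they ran from -0.26 to -0.17. With both brain libraries of an animal left out, the change in the ratio ran from -0.22 to -0.04. Adjusted p over all alternatives (edgeR, DESeq2 or limma) was 0.388 to 1 in RNA-seq and 0.476 to 0.942 in footprints. For the ratio it was 0.831 to 1. With the animal as a replicate block the ratio changed by -0.14 (edgeR adjusted p = 0.911), so the block did not change the call for ENSRNOT00000010238. Leaving out each animal from that blocked fit, an alternative chosen after seeing the data, gave -0.23 to -0.04. Between ages the replicate number marks different animals: same-numbered libraries correlated at -0.0788 to 0.186, and 8 of 24 correlated best with their own number. A block on that number gave -0.05 and -0.21 in brain RNA-seq and footprints and 5.69 and 6.48 in liver, and moved the brain counts of calls from 66 to 287 and from 232 to 386. With one library left out, the liver log2 fold change ranged between 5.32 and 6.28 (RNA-seq) and between 5.86 and 7.90 (footprints), the highest without young animal 1, and from 5.58 to 5.73 and 6.40 to 6.83 under the other settings.

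Brain against liver, as log2 ratios of library-total CPM, was 5.58 in young RNA-seq (4.41 with TMM, 4.45 with median-ratio scaling, 5.18 to 6.24 with one animal left out), 8.22 in young footprints (6.84, 6.85, 7.64 to 9.80), -0.02 in old RNA-seq (-1.29, -1.25, -0.27 to 0.16, the highest being without old animal 1, and 0.071 with old animal 3 left out) and 1.46 in old footprints (0.20, 0.19, 1.08 to 1.72). The scaling itself makes that difference, since it multiplies whole libraries. The comparison of transcripts low in young liver covered only those with at least 5 CPM in each brain RNA-seq library. Among the others of that kind, the highest mean in old liver RNA-seq was 4.49 CPM at limits of 1 or 0.5 CPM in young liver. It was 6.24 CPM at a limit of 2 CPM. At 0.5 CPM the transcript itself, at 0.568 CPM in young animal 1, would not enter.

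Counts of transcripts called in brain moved by over 1.5 times in many settings: 66 in RNA-seq became 299 with DESeq2, 0 with the spread over all 12 libraries (936 at an unadjusted p under 0.05 by edgeR) and 1 to 1128 with one library left out. In footprints 232 became 383 with DESeq2, 9 with the spread over 12 libraries and 33 to 321. For the ratio 12 became 61 with DESeq2, 31 with the animal block, 4 with median-ratio factors, 0 with upper-quartile factors, library totals alone or limma-voom (1036, 1030 and 1086 at an unadjusted p under 0.05) and 0 to 6 with one animal left out. Depth limits what can be said of young liver, where the transcript had 21 and 8 counts.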
